A study of Mus musculus with 10 samples.

Results

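The galectin genes Lgals1, Lgals3, Lgals8 and Lgals9 were followed through single-cell RNA libraries of mouse microglia taken from adult brain, from brain slice cultures and from mixed glial cultures. They were chosen by name, as 4 of the 18292 gene symbols in the count tables, because Lgals1 was far higher in cultured than in adult cells. The difference of each culture from adult is therefore given below as a description, and the members' levels were tested only among the cultures and, within libraries, between classes of cells, 1 of them with an adult library. The study used C57BL/6 mice and compared 5 groups of 2 libraries each. Adult microglia were sorted straight from adult brain, without culture. Slice microglia were sorted from coronal slices of neonatal brain, several of which were pooled as needed, after 1 day, 1 week or 3 weeks on culture inserts in a medium with horse serum and added PDGF. In vitro microglia were collected from the medium of mixed glial cultures of neonatal cortex after 3 weeks, grown with horse and fetal bovine serum. All cells were gated as live, CD11b high and CD45 intermediate. Age of the donor animal and culture cannot be told apart in any comparison with adult, since every culture began from neonatal tissue.

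Galectins are lectins that bind β-galactosides on the sugar chains of glycoproteins. They are made in the cytosol without a signal peptide and reach the cell surface by an unconventional route, where they crosslink receptors. Lgals1 encodes a galectin with a single sugar-binding domain that forms dimers, and the protein of Lgals3 joins its sugar-binding domain to a flexible tail through which it forms multimers. Lgals8 and Lgals9 encode galectins with a pair of linked sugar-binding domains. Inside cells, the Lgals3 and Lgals8 proteins gather on damaged endosomes and lysosomes, and the Lgals9 protein is known as a ligand of the receptor TIM-3. In brain, Lgals3 is widely used as a marker of reactive microglia.

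The 10 libraries held 61 to 3799 cells after filtering, with 385373 to 39689540 unique molecular identifiers (UMIs) each and median depths of 1858 to 13966 UMIs per cell. The homeostatic microglia list (11 genes, all detected in every group) summed to 41876 to 43233 CPM, the count scaled to the library's size, in adult, 4000 to 4696 at 1 day, 9409 to 10218 at 1 week, 18449 to 20267 at 3 weeks and 1577 to 1761 in vitro. P2ry12, the purinergic receptor that leads this list, stood at 6480 and 7391 CPM in adult and at 59.97 and 42.6 CPM in vitro. The neutrophil list (9 genes, led by S100a8) summed to 7345 to 22018 CPM at 1 day and 941 to 42971 CPM at 1 week, and to at most 7.61 CPM elsewhere, where Retnlg was at 0 in every group. The border macrophage list (5 genes) summed to 2342 to 2433 CPM in vitro and to at most 276 CPM elsewhere. Of 18840 distinct barcodes, 218 occurred in more than 1 library, and no pair of libraries shared more than 21. Adult replicate 1 and slice 3 weeks replicate 1 carried another study label than the other 8 libraries.

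Lgals1 separated cultured from adult cells by more than any spread between libraries. The gene lies at chr15:78926725-78930465 on the plus strand (mm10). Adult libraries held 79 and 38 Lgals1 UMIs, or 5.78 and 4.89 CPM. Slice libraries stood at 1206 and 1363 CPM at 1 day, 748 and 823 CPM at 1 week, and 653 and 415 CPM at 3 weeks. In vitro libraries reached 2590.0 and 3398 CPM. The order of the group means was thus in vitro (2994 ± 571), 1 day (1285 ± 111), 1 week (785 ± 53.4), 3 weeks (534 ± 168) and adult (5.34 ± 0.630 CPM, SD, n = 2 each). Relative to adult, the fitted log2 difference was 9.12 (SE 0.32) in vitro, 7.90 (SE 0.30) at 1 day, 7.19 (SE 0.29) at 1 week and 6.63 (SE 0.29) at 3 weeks. In bulk sums such as these, fewer cells with the transcript and less transcript per cell cannot be told apart.

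Lgals3 was as strongly set apart from adult, but did not order the cultures. The gene lies at chr14:47367751-47386160 on the plus strand (mm10). Adult libraries held 52 and 31 UMIs, or 3.81 and 3.99 CPM. Slices gave 1872 and 1545 CPM at 1 day, 1671 and 757 CPM at 1 week, and 675 and 1299.5 CPM at 3 weeks, and in vitro libraries gave 1281 and 2506 CPM. The libraries of neighbouring groups overlapped throughout the cultures. Group means were 1894 ± 867 in vitro, 1708 ± 232 at 1 day, 1214 ± 647 at 1 week, 987 ± 442 at 3 weeks and 3.90 ± 0.130 CPM in adult (SD, n = 2 each). The log2 difference from adult was 8.92 (SE 0.59) in vitro, 8.78 (SE 0.59) at 1 day, 8.29 (SE 0.58) at 1 week and 7.99 (SE 0.57) at 3 weeks.

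Lgals8 and Lgals9 took the opposite course and had their highest CPM in adult cells. Lgals8 lies at chr13:12439415-12464944 and Lgals9 at chr11:78962974-78984946, both on the minus strand (mm10). Lgals8 stood at 63.7 and 71.9 CPM in adult and at 56.6 and 53.4 CPM in vitro. Its slice libraries gave 36.9 and 34.5 CPM after 1 day, 33.6 and 28.1 CPM after 1 week, and 27.0 and 33.6 CPM after 3 weeks. Its 1-week and 3-week libraries overlapped. Lgals9 stood at 216 and 254 CPM in adult, 174 and 171 in vitro, 147 and 108 at 3 weeks, 113 and 125 at 1 week, and 103 and 98.3 at 1 day. Here the 3-week and 1-week libraries overlapped. The log2 difference of Lgals8 from adult was -0.30 (SE 0.14) in vitro, -0.93 (SE 0.15) at 1 day, -1.09 (SE 0.20) at 1 week and -1.15 (SE 0.14) at 3 weeks, but on counts per cell, with no scaling for depth, it was 1.89, 0.64, 0.11 and -0.050. For Lgals9 it was -0.45 (SE 0.17), -1.22 (SE 0.17), -0.99 (SE 0.18) and -0.89 (SE 0.17), and on counts per cell 1.76, 0.35, 0.23 and 0.26. Counting per cell moved the median of all genes by 2.16, 1.55, 1.19 and 1.09 in these comparisons, so both genes lay below that median on either scale.

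The promoter of Lgals9 is shown because cells rich in interferon-induced genes carried more Lgals9, as described below. The 250 bases before the RefSeq start site, at chr11:78984925-78985174 on the minus strand of GRCm38.p6, read 5′ to 3′ with the bases that match the core of an interferon-stimulated response element in capitals.
Lgals9: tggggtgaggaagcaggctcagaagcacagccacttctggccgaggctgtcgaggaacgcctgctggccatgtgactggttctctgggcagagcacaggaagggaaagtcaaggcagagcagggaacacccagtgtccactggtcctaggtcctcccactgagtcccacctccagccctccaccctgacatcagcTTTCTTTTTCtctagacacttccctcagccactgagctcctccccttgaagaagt
The core was searched on both strands as GAAA, any 2 bases and GAAA again, with no other motif searched. The match lay on the strand opposite to the gene, 55 to 46 bases before the start. The same letters stood in 978 of 32851 mouse promoters of this length (2.98%), and in neither the Lgals3 nor the Lgals8 promoter. Counted by gene, with any promoter of the gene allowed, they stood in 4 of the 7 genes found for the interferon list. That count is therefore not on the same measure as the share of promoters.

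**Figure D1:**
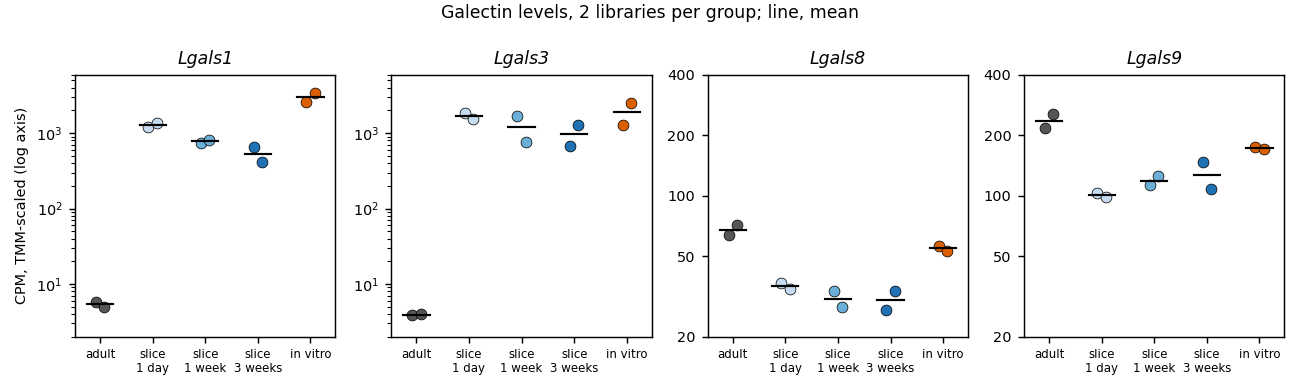
Level of each galectin in CPM on a log axis, with 1 point per library, 2 libraries per group and a line at the group mean. Lgals1 and Lgals3 sat between 3.81 and 5.78 CPM in the adult libraries and at 415 CPM or more in every cultured library, while Lgals8 and Lgals9 were highest in adult on this scale, but not on counts per cell.

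A further 5 Lgals symbols were in the tables, and apart from Lgals3bp all were scarce. Lgals7, a galectin of stratified epithelium, had at most 4 UMIs in any library and none in any slice library. Lgals2 had at most 22 UMIs, Lgals4 at most 27 and Lgalsl, which encodes a galectin-like protein, at most 102. Lgals6 and Lgals12 were not among the symbols in the count tables. Of the 2 other family members abundant enough to be tested, Lgals4 was lower in vitro than at 3 weeks (log2 -2.41, SE 0.56, adjusted p = 0.0074), on 10 and 8 against 16 and 23 UMIs, and Lgalsl was not called (-0.28, SE 0.46, adjusted p = 0.67). The call of Lgals4 was lost without in vitro replicate 1 (-2.61, adjusted p = 0.055) or 2 (-2.11, adjusted p = 0.10), and on counts per cell (-1.396, adjusted p = 0.12).

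Among the cultures, Lgals1 was highest in vitro and fell with time in slices. Tests used edgeR's quasi-likelihood method on the counts summed per library, with genes called at an adjusted p under 0.05 and a fold change over 1.5. Lgals1 was higher in vitro than at 1 day (log2 1.22, SE 0.22, adjusted p = 0.0020), 1 week (1.93, SE 0.23, adjusted p = 0.00039) and 3 weeks (2.49, SE 0.23, adjusted p = 2.7e-05). Within slices it was lower at 3 weeks than at 1 day (-1.27, SE 0.22, adjusted p = 0.0024). The steps from 1 day to 1 week (-0.71, SE 0.22, adjusted p = 0.069) and from 1 week to 3 weeks (-0.56, SE 0.22, adjusted p = 0.18) were not called. Of 21 alternatives each, 7 and 3 called them, among these the fit with the study label as a term. The step to 1 week was called without either 3-week library (-0.76 in both cases), and the step to 3 weeks was called without slice 3 weeks replicate 1 (-0.87). Leaving out the cells rich in neutrophil transcripts gave 1.16, 1.89, 2.49 and -1.32 for the 4 called differences, which all stayed called.

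Lgals8 and Lgals9 were also higher in vitro than in at least 1 slice group. Lgals8 was higher in vitro than at 1 day (log2 0.63, SE 0.15, adjusted p = 0.0074), 1 week (0.79, SE 0.20, adjusted p = 0.020) and 3 weeks (0.85, SE 0.14, adjusted p = 0.0012). The first of these was lost without slice 1 day replicate 2 (0.62, adjusted p = 0.069), and the second without slice 1 week replicate 1 (1.06, adjusted p = 0.087). The first was also lost by library size alone (0.45), and both were lost with cells thinned to 1000 UMIs (0.83 and 0.62). Lgals9 was higher in vitro than at 1 day (0.78, SE 0.17, adjusted p = 0.0053). Its differences from 1 week (0.55, SE 0.18, adjusted p = 0.067) and 3 weeks (0.44, SE 0.17, adjusted p = 0.058) were not called, although without slice 3 weeks replicate 1 they were (0.68 and 0.76), and the former also without slice 3 weeks replicate 2 (0.67). On the slice time axis neither gene was called, with differences between -0.22 and 0.33.

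Lgals3 was not called in any of the 6 comparisons. The most separated pair was in vitro against 3 weeks (log2 0.94, SE 0.41, adjusted p = 0.095). That difference passed the threshold without slice 3 weeks replicate 2 (1.55), in vitro replicate 1 (1.42) or slice 1 week replicate 1 (1.02). Its other differences ran from -0.79 (3 weeks against 1 day) to 0.63 (in vitro against 1 week), each with an SE of 0.41. The comparison with 3 weeks was also called with DESeq2 (0.98), with no filter on genes (1.03), with all deposited barcodes (1.13), on counts per cell (2.05) and without both 1-week libraries (1.01), in all 8 of 22 alternatives. In vitro against 1 week was called with no filter (0.87) and on counts per cell (1.61), as was 3 weeks against 1 day (-0.75 and -1.25).

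The counts of called members stood beside large shares of all genes tested. In vitro against 3 weeks, 2 of 4 members were called where 33.2% of 12157 genes were. In vitro against 1 day, 3 of 4 were called against 31.9% of genes. For in vitro against 1 week the count was 2 of 4 against 16.2%, and for 3 weeks against 1 day it was 1 of 4 against 26.7%. No member was called at 1 week against 1 day (10.2% of genes) or at 3 weeks against 1 week (5.71%). In the comparisons with adult, which the choice of genes had used, 50.8% of genes were called in vitro, 50.2% at 1 day, 28.6% at 1 week and 35.4% at 3 weeks.

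**Figure D2:**
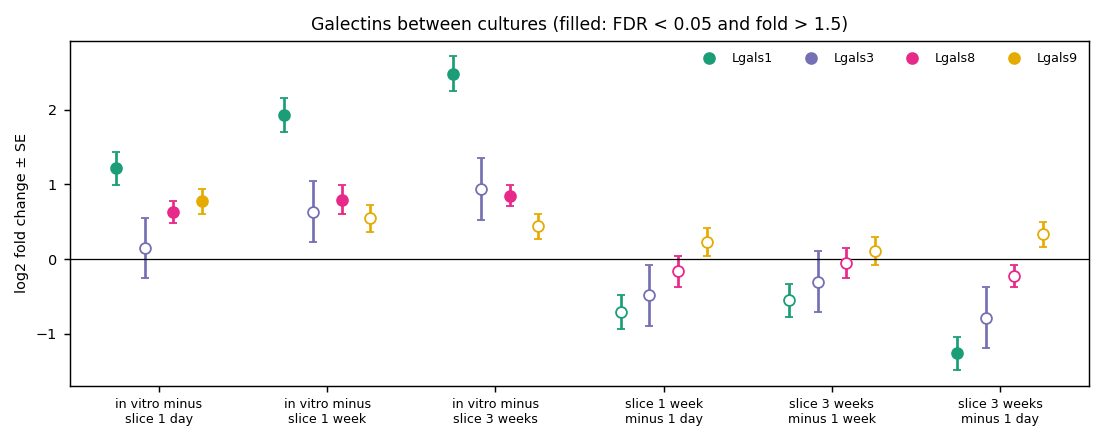
Log2 fold change (± SE) of each galectin in the 6 comparisons among cultures, with filled points for called differences. Lgals1 lay above 1 in every comparison of in vitro with slices, and all Lgals3 points were open.

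Counted cell by cell, Lgals1 was near ubiquitous in vitro and near absent in adult microglia. Each cell was thinned to 1000 UMIs, so that shares do not follow depth, and 273 shallower cells were left out, all but 2 of them adult. A Lgals1 UMI was then found in 0.563% and 0.391% of adult cells, 52.3% and 64.3% at 1 day, 39.9% and 47.5% at 1 week, 34.5% and 24.0% at 3 weeks, and 80.8% and 88.9% in vitro. Exact binomial 95% intervals, which cover counting error only, were 0.349% to 0.859% in adult replicate 1 and 87.6% to 90.1% in vitro replicate 2. Before thinning, the in vitro shares were 99.6% and 99.9%. For Lgals3 the thinned shares were 0.455% and 0.271% in adult, 60.6% and 61.9% at 1 day, 51.4% and 28.8% at 1 week, 24.9% and 40.2% at 3 weeks, and 38.0% and 61.3% in vitro. As with its level, the Lgals3 shares of the cultures overlapped.

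The adult shares of Lgals1 and Lgals3 were low, and transcripts that microglia do not make were found at shares both above and below them. The haemoglobin gene Hbb-bs was found in 11.4% and 0% of thinned adult cells, the latter a count of 0 of 3322 cells whose exact interval ends at 0.111%. Gfap, the astrocyte filament gene, was found in 1 cell of each adult library (0.0268% and 0.0301%), below Lgals1 and Lgals3. Free RNA was not removed, so the low adult shares are not read as expression by single cells. In cultures Gfap was found in at most 3.39% of cells (2 of 59 in slice 1 week replicate 2), far below Lgals1 and Lgals3 there. Hbb-bs was found in 5.21% of cells of slice 1 day replicate 1 and in at most 0.0867% of cells of the other cultured libraries. Neutrophil transcripts were far more common in 3 slice libraries, and whether they were free RNA, doublets or the cells' own was not tested. S100a8 was found in 28.4% and 86.3% of the thinned cells at 1 day and in 91.9% of slice 1 week replicate 1, also after cells rich in neutrophil transcripts were left out. In those cells Lgals1 was at 57.8%, 67.3% and 43.5%, and Lgals3 at 62.4%, 60.7% and 43.5%. In slice 1 day replicate 2 and slice 1 week replicate 1 both shares thus lay below that of S100a8 and are not read as shares of expressing cells. S100a8 was found in 1.72% of cells of slice 1 week replicate 2 and in at most 0.207% at 3 weeks and in vitro, against at least 24.0% for Lgals1 and 24.9% for Lgals3. No cell type in the sort is known to lack Lgals1, so a direct background for it was not measured.

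Lgals9 was found in more adult cells than cultured cells at equal depth. The thinned shares were 20.7% and 24.8% in adult, 14.5% and 13.3% in vitro, 12.7% and 9.71% at 3 weeks, 4.73% and 10.2% at 1 week, and 9.07% and 7.40% at 1 day. Lgals8 was found in 6.70% and 8.37% of adult cells and in 2.27% to 5.59% of cells of the cultured libraries. Without thinning the order changed, with Lgals9 in 50.9% and 40.5% of adult cells against 77.9% and 80.4% of the deeper in vitro cells.

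Lgals3 was unevenly spread over the cells of every culture. Its variance over mean at 1000 UMIs was 3.58 to 6.94 in the 8 cultured libraries, against 1.67 to 2.20 for Lgals1 and a median gene at 1.08 to 1.298. Among the 438 to 537 genes with a mean of at least 0.3 UMIs in a library, only 1.51% to 8.21% were more uneven than Lgals3, and 6.05% to 20.3% more uneven than Lgals1. The 10% of cells richest in Lgals3 held 43.0% to 77.2% of its UMIs, and single cells reached 751 UMIs of Lgals3 before thinning. Both genes were detected together in 32.6% and 56.3% of thinned in vitro cells, 32.4% and 39.8% at 1 day, 23.0% and 20.3% at 1 week, 11.9% and 13.5% at 3 weeks, and in no adult cell. The Pearson correlation of their UMIs over the cells of a library was 0.09 to 0.24 in cultures, too weak in sparse counts to be read.

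**Figure D3:**
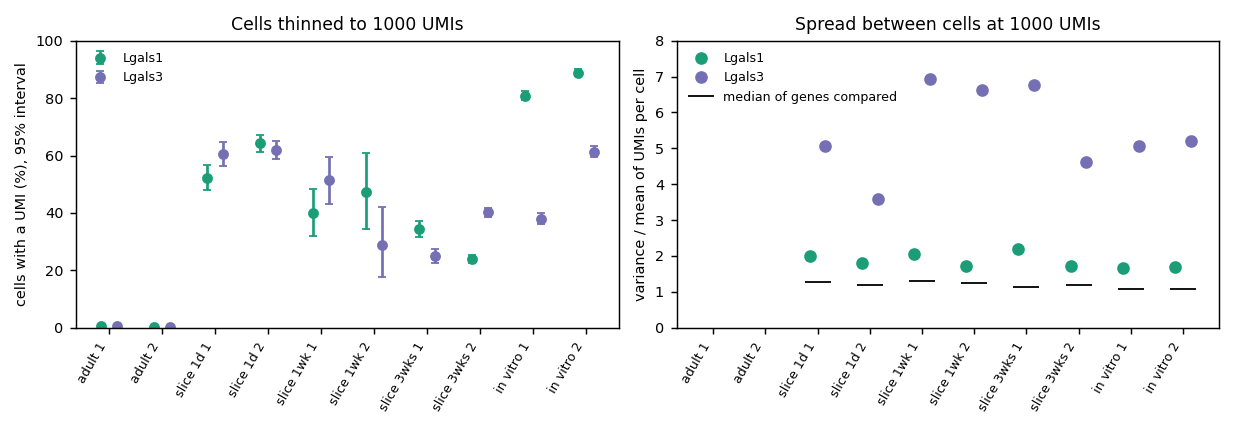
Left, the share of cells with a UMI of Lgals1 or of Lgals3 after thinning to 1000 UMIs, by library, with exact 95% binomial intervals. Right, the variance over mean of UMIs per cell, in which Lgals3 lay between 3.58 and 6.94 and Lgals1 between 1.67 and 2.20 in the cultured libraries.

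Cells with a Lgals3 UMI carried less of the homeostatic microglia programme than cells without one. After cells rich in neutrophil transcripts were left out, 7 cultured libraries held enough cells of both kinds. Slice 1 day replicate 2 and slice 1 week replicate 1 are among them. As given above, their Lgals3 shares are not read as shares of expressing cells. Cells with monocyte or border macrophage transcripts were kept. These limits also hold for the next paragraph. The summed homeostatic list was lower in cells with Lgals3 in 7 of 7 libraries, at 0.417 to 0.779 of the level in cells without. P2ry12 was at 463 against 1233 CPM and 349.7 against 1310.4 CPM at 3 weeks, and at 34.8 against 74.8 CPM and 35.9 against 53.95 CPM in vitro. Tmem119, a surface protein of resident microglia, was at 0.173 to 0.704 of the level in cells without Lgals3. Cx3cr1, the fractalkine receptor, and Gpr34 were also lower in 7 of 7 libraries, and Olfml3 in 6 and Selplg in 5 of 7. For comparison, 8.30% of 843 genes with at least 20 UMIs in every library were lower in all 7 libraries, and 10.1% were higher.

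Of 11 genes of the disease-associated list, 9 were higher in cells with Lgals3 in most of the libraries that could be compared, or 8 with the neutrophil-rich cells kept. Of the 7 genes compared in all 7 libraries 5 were, beside 56.0% of the 843 genes, and nothing particular to the list is read from this. The sum of the list was nevertheless higher in 2 and lower in 5 of 7 libraries, with ratios of 0.680 to 1.21, beside 0.637 to 1.03 for Apoe, the apolipoprotein E gene. Gpnmb, a lysosomal glycoprotein gene, was higher in cells with Lgals3 in 5 of 5 libraries (1.68 to 4.01 times), for instance 505 against 126 CPM and 220 against 61.7 CPM at 3 weeks. Fabp5, a fatty acid carrier, was higher in 7 of 7 (1.66 to 4.53 times), as was the growth factor Igf1 (1.14 to 2.79 times). Spp1 and Cd9 were higher in 5 of 7 and Lpl in 4, Cst7 and Csf1 in 3 of 4, and Itgax in the 1 library compared. Trem2 was higher in 3 of 7 and Apoe in 2. Lgals1 was higher in cells with Lgals3 in 7 of 7 libraries (1.09 to 2.34 times). These are ratios within libraries, with no test, since cells of a library are not replicates.

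**Figure D4:**
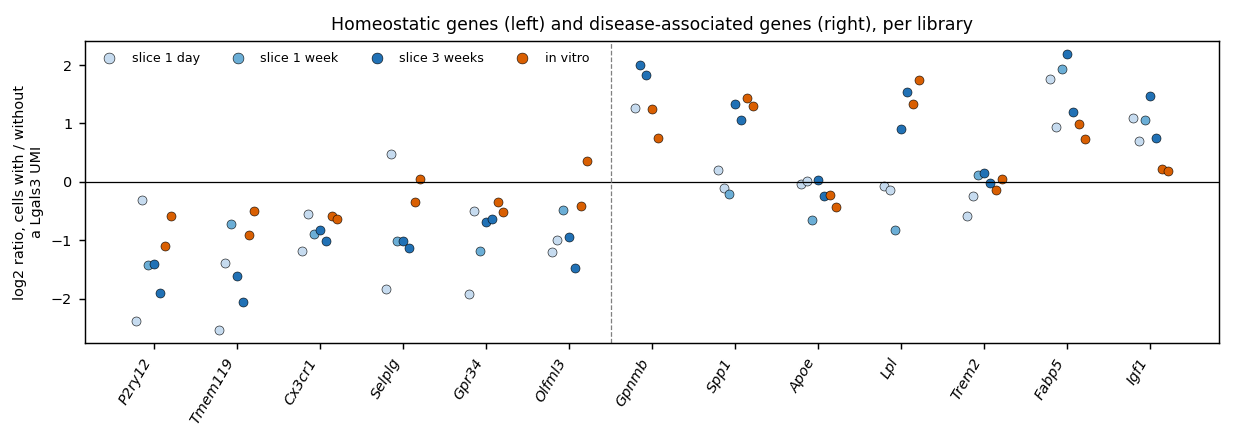
Log2 ratio of the homeostatic (left) and disease-associated genes (right) named in the text, apart from Cd9, Cst7, Csf1 and Itgax. Cells with a Lgals3 UMI are set against cells without one, at 1000 UMIs per cell, with 1 point per library. P2ry12, Tmem119 and Cx3cr1 lay below 0 in every library, and Fabp5, Gpnmb and Igf1 above 0.

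Lgals1 was scarce in the neutrophil-rich cells that the sort let through. Such cells, with at least 2% of UMIs from the neutrophil list, numbered 68 of 518 and 110 of 1014 at 1 day and 24 of 148 in slice 1 week replicate 1, and 7, 5 and 1 cells lay between 1% and 3%. Lgals1 stood at 169 against 1312 CPM, 460 against 1467 CPM and 163 against 786 CPM in these against the other cells of the library, which is 0.129 to 0.314 of the level. Lgals3 was lower in these cells in 1 of the 3 libraries, at 1066 against 1996 CPM. In the others it was not, at 1667 against 1565 and 1835 against 1523 CPM. Their median depth was lower, at 2224 to 4925 UMIs against 6986 to 8868. Cells with at least 3 genes of the monocyte list, present in both 1-day libraries, had Lgals1 at 1.204 and 0.979 times the level of the other cells.

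Proliferating cells held less Lgals3 in slices and more in vitro. They were defined by at least 3 detected genes of the proliferating list, which is led by the cell-cycle marker Mki67, and 32 to 424 cells per library lay within 1 gene of this limit. In slices Lgals3 stood at 725 against 2275 and 803 against 1858 CPM at 1 day, and at 251 against 751 and 714 against 1295 CPM at 3 weeks, in proliferating against other cells. In vitro the order was turned, at 1714 against 1072 and 3285 against 1894 CPM. In an edgeR fit over the 6 libraries with a term for library, added after these values were seen, the log2 difference was -1.41 (SE 0.13, adjusted p = 1.4e-06) in slices and 0.61 (SE 0.17, adjusted p = 0.022) in vitro. The difference between the settings was 2.02 (SE 0.21, adjusted p = 0.00025), a call shared by 1.85% of 10297 genes, where 13.6% were called in slices and 12.3% in vitro. Lgals8 was also lower in proliferating slice cells (-0.64, SE 0.13, adjusted p = 0.0027), and Lgals1 differed by less than the fold limit (-0.36, SE 0.10, adjusted p = 0.022). Proliferating cells were deeper than the others in all 6 libraries, with medians of 6616 to 18552.5 against 5198 to 13183.5 UMIs, and the part of depth in these differences was not tested.

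Lgals9 was higher in cells rich in interferon-induced genes. These cells had at least 4 detected genes of the interferon list (among them Ifit1, Isg15 and Irf7), and 26 to 368 cells per library lay within 1 gene of the limit. Lgals9 stood at 378 against 236 CPM in adult replicate 1, 251 against 93.2 CPM in slice 1 day replicate 2, 270.3 against 142 and 259.8 against 102 CPM at 3 weeks, and 219 against 149 and 227 against 144 CPM in vitro. All 6 libraries went the same way, by 1.46 to 2.70 times. Over the 6 libraries the log2 difference was 0.87 (SE 0.12, adjusted p = 0.00029, edgeR), with 1.42% of 10230 genes called. The test was added after the values were seen. The interferon-rich cells were deeper in all 6 libraries, with medians of 3908.5 to 15169 against 3254 to 13853.5 UMIs, and the part of depth was not tested. The promoter printed above belongs to this gene. Lgals3 was not called between these cells (-0.73, SE 0.28, adjusted p = 0.50), nor were Lgals1 and Lgals8.

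**Figure D5:**
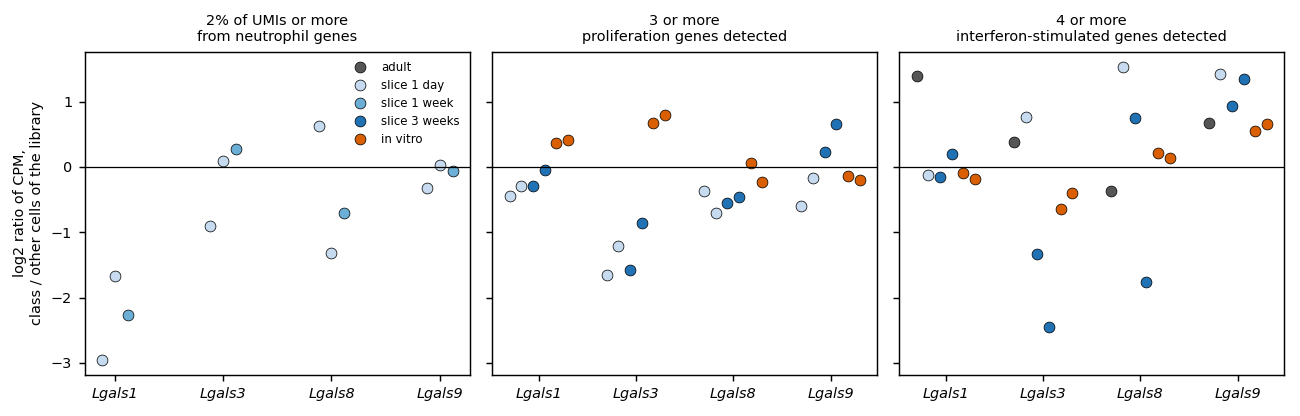
Log2 ratio of each galectin in neutrophil-rich, proliferating and interferon-rich cells against the other cells of the same library, with 1 point per library. Lgals3 in proliferating cells lay below 0 in the 4 slice libraries and above 0 in both in vitro libraries, and Lgals9 in interferon-rich cells above 0 in all 6.

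Genes of the wider galectin pathway were described from 5 lists with 49 tested members. In vitro against 3 weeks, 11 were higher and 17 lower (57.1% called against 33.2% of all genes), and at 3 weeks against 1 day, 18 were higher and 3 lower (42.9% against 26.7%). The 11 fell to 7 and 6 without in vitro replicate 1 or 2, and the 18 to 10 without slice 1 day replicate 2. On counts per cell the first split was 25 higher and 3 lower, and the second 7 higher and 3 lower. Among the called genes named below, Itgb1, P4hb and Slc3a2 changed sign on that scale for in vitro against 3 weeks, as given below. Others kept their sign, but for in vitro against 3 weeks Mertk (-0.41), Bsg (-0.65), Mgat4a (-0.61), St3gal2 (-0.24), Optn (-0.014) and B3gnt2 (-0.98) were no longer called. Over slice time St3gal2 (0.94), Optn (1.06), B3gnt2 (1.58), Bsg (0.19), C1galt1c1 (0.27) and Itgb1 (0.45) kept their sign but were no longer called.

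Partners and receptors were called in both directions in vitro against 3-week slices, and 11 of 17 rose from 1 day to 3 weeks in slices. In vitro against 3 weeks, 3 were higher, 8 lower and 6 not called (64.7% called against 33.2% of all genes, median log2 -0.73 against -0.10), and at 3 weeks against 1 day 11 were higher, 1 lower and 5 not called (70.6% called against 26.7%, median 0.75 against 0.05). The 11 fell to 6 without slice 1 day replicate 2. On counts per cell the first became 6 higher and 1 lower, with Itgb1 (0.27), P4hb (0.16) and Slc3a2 (0.043) turned in sign and not called, and the second 5 higher and 1 lower. Havcr2, which encodes TIM-3, stood at 148 and 143 CPM in adult, 31.7 and 22.9 at 1 day, 62.2 and 74.1 at 1 week, 114 and 131 at 3 weeks, and 13.5 and 17.5 in vitro. It rose from 1 day to 3 weeks (log2 2.19, SE 0.20, adjusted p = 9.4e-05) and was lower in vitro than at 3 weeks (-2.98, SE 0.19, adjusted p = 2.9e-06). Mertk, a phagocytic receptor, rose by 2.22 (SE 0.29, adjusted p = 0.00058) over the same slice interval and was lower in vitro than at 3 weeks (-1.51, SE 0.27, adjusted p = 0.0017).

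Cd44, a surface glycoprotein that binds hyaluronan, ran in the opposite direction. It stood at 0.512 and 0.129 CPM in adult, 80.9 and 73.6 at 1 day, 35.6 and 20.5 at 1 week, 15.0 and 18.8 at 3 weeks, and 54.5 and 72.8 in vitro. It fell from 1 day to 3 weeks (log2 -2.18, SE 0.23, adjusted p = 0.00019) and was higher in vitro than at 3 weeks (1.90, SE 0.22, adjusted p = 0.00013), as Lgals1 was in both comparisons. Bsg (basigin) was lower in vitro than at 3 weeks (-1.73, SE 0.18, adjusted p = 6.9e-05). Lgals3bp, a secreted glycoprotein that binds galectins, stood at 292 and 255 CPM at 3 weeks against 115 and 65.0 at 1 day (1.61, SE 0.27, adjusted p = 0.0019). Its difference in vitro from 3 weeks was not called (-0.70, SE 0.26, adjusted p = 0.053). Lgals3bp was called higher at 3 weeks (mean 273 CPM) and in vitro (168) than at 1 week (72.6).

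Of 12 glycan synthesis genes tested, 2 were higher and 4 lower in vitro against 3 weeks (50% against 33.2% of all genes), and 3 were higher and none lower at 3 weeks against 1 day (25%, near the 26.7% of all genes). The 2 higher calls were those of C1galt1, the core O-glycan synthase (log2 1.19, SE 0.34, adjusted p = 0.021), and Man2a1, a Golgi mannosidase (0.77, SE 0.19, adjusted p = 0.010). Both were lost without in vitro replicate 2 (1.11, adjusted p = 0.14, and 0.77, adjusted p = 0.067), and C1galt1 also without in vitro replicate 1 (1.42, adjusted p = 0.055). They were chosen after their values were seen. C1galt1c1, the chaperone needed for core O-glycans, was lower in vitro (log2 -2.05, SE 0.17, adjusted p = 1.6e-05), as was Mgat4a, which branches N-glycans (-1.67, SE 0.14, adjusted p = 1.7e-05). Mgat5, whose N-glycan branches are favoured ligands of galectins, was not called in either comparison (0.13, adjusted p = 0.55, and 0.47, adjusted p = 0.056). It was called higher at 3 weeks (mean 23.6 CPM) and in vitro (25.7) than at 1 week (9.27), whose libraries held 61 and 148 cells. Man2a2, another Golgi mannosidase, was higher at 3 weeks than at 1 day (1.68, SE 0.20, adjusted p = 0.00035). B3gnt2, an enzyme that extends lactosamine chains, was called in both comparisons, but slice 3 weeks replicate 2 alone had 7.45 CPM, where every other library had at most 1.46, and without it neither was called (-0.25 and 0.33).

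Sialyltransferases can cap galactose against galectin binding. Of 8 genes of sialic acid capping and removal, 3 were higher and 2 lower in vitro against 3 weeks (62.5% against 33.2% of all genes), and 3 were higher and 1 lower at 3 weeks against 1 day (50% against 26.7%). St3gal6 stood at 475 and 519.6 CPM in adult, 47.4 to 89.7 CPM in slices, and 7.83 and 5.10 CPM in vitro, a fall of 3.55 on the log2 scale from 3 weeks (SE 0.24, adjusted p = 3.9e-06). St6gal1, which adds sialic acid in the linkage that blocks Lgals1 protein, stood at 51.8 and 45.1 CPM in vitro against 16.5 and 25.8 at 3 weeks (1.17, SE 0.25, adjusted p = 0.0041) and 6.28 and 7.82 at 1 day (3 weeks against 1 day 1.57, SE 0.29, adjusted p = 0.0030). St3gal4 was higher in vitro (1.40, SE 0.26) and St3gal2 lower (-1.33, SE 0.17), with adjusted p of 0.0023 and 0.00026, and over slice time they changed by -1.08 (adjusted p = 0.016) and 1.42 (adjusted p = 0.00082). The slice difference of St3gal4 was lost without slice 1 day replicate 1 (-0.91) or slice 3 weeks replicate 2 (-0.70).

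Of 10 genes of the response to damaged vesicles, 3 were higher and 2 lower in vitro against 3 weeks (50% against 33.2% of all genes), and 1 was higher and 1 lower at 3 weeks against 1 day (20% against 26.7%). Map1lc3b, which encodes the autophagosome protein LC3B, was higher in vitro (log2 0.90, SE 0.15, adjusted p = 0.0011). Trim16, a partner of the Lgals3 protein on damaged lysosomes, was called higher in vitro (0.94, SE 0.33, adjusted p = 0.046) at 1.03 to 7.67 CPM in all libraries, a call lost when adult replicate 2, either 1-day library, slice 3 weeks replicate 2 or either in vitro library was left out (0.94 to 1.04). The autophagy receptor Optn was lower in vitro (-1.13, SE 0.34, adjusted p = 0.023) and rose from 1 day to 3 weeks (1.57, SE 0.38, adjusted p = 0.012), but the former was lost without slice 3 weeks replicate 2 (-0.59) or either in vitro library (-1.07 and -1.02) and the latter without slice 3 weeks replicate 2 (1.10) or either 1-day library (1.56 and 1.58). The receptor Sqstm1 fell over the same interval (-0.81, SE 0.17, adjusted p = 0.0056).

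The genes whose levels most resembled each galectin were listed by Pearson correlation of log2(CPM + 1) over the 10 libraries, as a description, since libraries of a group share that group and the gap between adult and cultures sets most of the pattern. Lgals1 was closest to Ikbke, an IκB kinase family member (r = 0.995), Sh3pxd2b (0.994), the ATP synthase subunit gene Atp5l (0.994), Coa5 (0.993) and Fabp5 (0.992). Lgals3 was closest to the actin nucleator Diaph1 (0.994), Anxa2 (0.994), Plp2 (0.993), Clic4 (0.990) and Vim (0.989), the vimentin gene. Lgals8 was closest to Slc40a1 (0.979), the iron exporter ferroportin, Cd300a (0.976), 2610035D17Rik (0.961), Zbtb7a (0.957) and Il7r (0.957). Lgals9 was closest to Flcn (0.975), Arhgap22 (0.972), the adaptor Blnk (0.971), Cc2d1b (0.971) and Srd5a3 (0.962). An r over 0.9 was reached by 413 of 12156 genes for Lgals1 and 379 for Lgals3, but by 34 for Lgals8 and 60 for Lgals9. By rank correlation, with tied genes given the same rank, 1, 2, 2 and 2 of these 5 genes were again ranked among the nearest 5. Among the members themselves r was 0.97 for Lgals1 with Lgals3, 0.82 for Lgals8 with Lgals9, and -0.55 to -0.78 between the pairs.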

How the data were processed

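Microglia were sorted and sequenced as 10x Genomics 3′ v2 libraries, 2 per group, and the library was the replicate. The study calls the 2 libraries of a group independent, without saying in the sources used here whether they came from separate animals or cultures, so p-values measure the spread between libraries, which may be technical. Per the labels, Cell Ranger 1.3.0 and mm10 were used. The authors ran it with default settings on each condition separately and then combined the conditions with its aggregate function. Whether the deposited tables come from before that step, which can equalise depth, is not stated. The authors deposited UMI counts, not normalised, with genes in rows and barcodes in columns, 1 table per library. A gene missing from a table was taken as 0. The members and all gene lists were chosen with earlier results of these data known. No column belonged to another sample.

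The cell limits of the study were applied (at most 5% mitochondrial UMIs, at least 400 genes and at most 30000 UMIs), which kept 19059 of 19637 barcodes. The study also screened for outlier cells by t-SNE, which was not repeated here, and kept fewer cells than the 61 to 3799 per library used here, in 1 of the 1-week libraries far fewer than the 148 used here. No doublet caller was run and free RNA was not corrected. Positions are from a GENCODE annotation of GRCm38 (mm10), which held 17611 (96.3%) of the symbols, and promoter sequences are from RefSeq (GRCm38.p6), of which those of Lgals3, Lgals8 and Lgals9 were used. Counts were summed per library and fitted with edgeR 4.0.16 (TMM factors, filterByExpr with a minimum count of 10, glmQLFit and glmQLFTest) in 1 model of the 5 groups, with 12157 genes and a biological coefficient of variation of 18.3%. Adjusted p are Benjamini-Hochberg over all genes tested. With 2 libraries against 2, no permutation p can fall under 0.05. CPM are TMM-scaled, and a count of 0 allows up to 3 counts, or 0.0756 to 7.78 CPM by library. Scripts were tested on simulated data. DESeq2 1.42.0, other scalings, other filters and leaving out each library were tried as alternatives. Named genes are the members, the 5 most alike genes of each, Lgals3bp, Havcr2, Lgalsl, Mgat5, St6gal1 and Trim16, up to 3 called genes per pathway list and comparison with the largest change, and the leading marker genes; genes of the marker lists were named as part of their list.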

Additional observations from a re-analysis of the deposited data

Results flagged for a closer look

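For Lgals3, the difference between proliferating and other cells was not the same in vitro and in slices. The log2 difference between proliferating and other cells was 2.02 higher in vitro than in slices (SE 0.21, adjusted p = 0.00025, edgeR with a term for library), and 2.00 with at least 4 in place of 3 detected genes. The test was added after the opposite directions were seen, so its p describes that difference and is no independent evidence of it. Proliferating cells were deeper in all 6 libraries, and the part of depth was not tested. For Lgals9, all libraries of a group went one way and all of another group the opposite way. The log2 ratio of proliferating to other cells was 0.83 higher at 3 weeks than at 1 day, with ratios of 1.17 and 1.58 against 0.660 and 0.894. It was lower in vitro than at 3 weeks (-0.62), with ratios of 0.907 and 0.871 in vitro. Neither Lgals9 difference was tested for that pair of groups. The fit of in vitro against all slices gave -0.30 (SE 0.19, adjusted p = 0.58).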

How the results depend on the processing

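Among the cultures, 461 of 516 alternative values of the members kept their direction and their side of the threshold, and for the comparisons with adult 312 of 348 kept direction and size. Called differences held most widely for Lgals1, whose differences in vitro from 3 weeks, 1 day and 1 week and at 3 weeks from 1 day were called in 22 of 22, 22 of 22, 21 of 21 and 22 of 22 alternatives. Lgals8 in vitro against 3 weeks (22 of 22) and Lgals9 in vitro against 1 day (22 of 22) also stayed called. Of alternatives that changed a call, the causes were not tested. The 1-week libraries rest on 61 and 148 cells. The planned removal of cells with 3 or more detected markers of other cell types was not run. It left 0 cells in slice 1 week replicate 1 and 7 of 1014 in slice 1 day replicate 2. Every cell of both libraries held a neutrophil transcript, but the part of each marker list in the removal was not counted.

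Some differences that had not been called passed the threshold. With DESeq2 these were Lgals3 in vitro against 3 weeks (0.98) and Lgals1 at 1 week against 1 day (-0.71). With no filter on genes they were Lgals3 in vitro against 3 weeks (1.03) and 1 week (0.87) and at 3 weeks against 1 day (-0.75), Lgals9 in vitro against 1 week (0.77) and Lgals1 at 1 week against 1 day (-0.79), and Lgals8 at 3 weeks against 1 week changed sign (0.079). With all deposited barcodes they were Lgals3 in vitro against 3 weeks (1.13) and Lgals9 in vitro against 1 week (0.60). With only the libraries of the groups compared, Lgals1 at 1 week against 1 day passed (-0.67), and without both 1-week libraries Lgals3 in vitro against 3 weeks did (1.01). With the study label as a term, Lgals1 passed at 1 week against 1 day (-0.71) and at 3 weeks against 1 week (-0.83), and Lgals8 in the latter changed sign (0.047). In the 8 libraries of 1 study label, Lgals9 in vitro against 3 weeks (0.68) and Lgals1 at 1 week against 1 day (-0.72) and 3 weeks against 1 week (-0.91) passed, and at 3 weeks against 1 week Lgals3 (0.10), Lgals8 (0.084) and Lgals9 (-0.12) changed sign.

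Scaling mattered for the less separated members. By library size alone, Lgals3 in vitro against 1 day changed sign (-0.040) and Lgals8 in vitro against 1 day was lost (0.45). With cells thinned to 1000 UMIs, the latter (0.83) and Lgals8 in vitro against 1 week (0.62) were lost, Lgals9 in vitro against 1 week was called (1.54), and signs changed for Lgals3 in vitro against 1 day (-0.11) and for Lgals8 (0.20) and Lgals9 (-0.50) at 1 week against 1 day. On counts per cell, Lgals3 was called in vitro against 3 weeks (2.05) and 1 week (1.61) and at 3 weeks against 1 day (-1.25), and Lgals9 in vitro against 3 weeks (1.496) and 1 week (1.52), while Lgals9 changed sign at 1 week (-0.12) and 3 weeks (-0.090) against 1 day. Against adult that scale turned Lgals8 in vitro (1.89), at 1 day (0.64) and at 1 week (0.11), and Lgals9 in vitro (1.76), at 1 day (0.35), 1 week (0.23) and 3 weeks (0.26). It moved the median of all genes by 1.08, 0.62 and 0.97 for in vitro against 3 weeks, 1 day and 1 week, and by -0.36, -0.10 and -0.46 for 1 week against 1 day, 3 weeks against 1 week and 3 weeks against 1 day. The share of called genes that were higher was 39.9% in vitro against 3 weeks and 41.8% in vitro against 1 day, 31.3% and 28.2% by library size alone, and 90.5% and 76.2% on counts per cell. With a stricter limit, Lgals9 in proliferating slice cells turned from 0.0054 to -0.053.

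Leaving out 1 library gave -0.86 to -0.63 for Lgals1 at 1 week against 1 day and -0.87 to -0.21 at 3 weeks against 1 week. For Lgals3 it gave 0.45 to 1.55 in vitro against 3 weeks, -0.34 to 0.63 against 1 day, and -0.79 to 0.40 at 3 weeks against 1 week. For Lgals8 it gave 0.62 to 0.74 in vitro against 1 day, 0.80 to 1.06 against 1 week, and -0.17 to 0.14 at 3 weeks against 1 week. For Lgals9 it gave 0.30 to 0.76 in vitro against 3 weeks, 0.55 to 0.77 against 1 week, and -0.081 to 0.38 at 3 weeks against 1 week.

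The number of genes called moved by over 1.5 times in several settings. On counts per cell it was 10338 in vitro, 5512 at 1 week and 7136 at 3 weeks against adult, 7076 and 5412 in vitro against 3 weeks and 1 week, and 767 at 1 week against 1 day. With thinned cells it was 1384 at 1 week against adult, 1985 and 571 in vitro against 1 day and 1 week, 161 at 1 week against 1 day, and 283 and 1797 at 3 weeks against 1 week and 1 day. With no filter on genes it was 3347 in vitro against 1 week, 1979 at 1 week against 1 day and 1722 at 3 weeks against 1 week, which gave 273 with the libraries of those groups only and 1276 in the 8 libraries of 1 study label. Leaving out 1 library gave 1446 to 3790 at 1 week against adult, 2451 to 4768, 2219 to 4516 and 624 to 2472 in vitro against 3 weeks, 1 day and 1 week, 218 to 1568 at 1 week against 1 day, and 46 to 1311 and 1440 to 4269 at 3 weeks against 1 week and 1 day. Calls in the pathway lists on counts per cell were 25 higher and 3 lower in vitro against 3 weeks, and 7 higher at 3 weeks against 1 day, and leaving out 1 library gave 6 to 11 and 10 to 20 higher.

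Replicate numbers did not pair the samples. Same-numbered libraries of different groups had correlated deviations of -0.135 to 0.123. With the replicate number as a block, no member changed its call, Lgals1 in vitro against 3 weeks stayed at 2.49, and the genes called there numbered 3891.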
